A study of Homo sapiens with 9 samples.

Results

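Desmosome components were followed as 10 genes (DSG2, DSC2, DSG3, DSC3, JUP, PKP1, PKP2, PKP3, DSP and PPL), chosen by name, and all 10 were found by current symbol among the 30580 genes tested. RNA was measured on 9 Illumina arrays in HCC4006, an EGFR-mutant line from a human lung adenocarcinoma. The inhibitor cells (3 arrays) were given gefitinib, which blocks the EGFR kinase, for 6 months together with SB431542, which blocks the type I TGFβ receptor kinase. The resistant cells (3 arrays) had 6 months in rising concentrations of gefitinib alone. The parental cells (3 arrays) had neither compound. All cells are of 1 line. There is no group with SB431542 only and no labelled group cultured drug-free for the same time, so drug, selection and time in culture cannot be told apart. The labels call the inhibitor cells gefitinib resistant too, while resistant cells here means only those given gefitinib alone. The labels leave unstated whether resistance came before the inhibitor, whether either compound was present at harvest and whether replicates were separate cultures. P-values here thus reflect only how far these arrays differ, and that spread may be technical.

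Desmosomes are button-like junctions that tie the keratin filaments of neighbouring epithelial cells together. Desmogleins (DSG) and desmocollins (DSC) are cadherins that bind across the gap between cells. Their tails hold plakoglobin (JUP) and the plakophilins (PKP), which recruit desmoplakin (DSP), and desmoplakin grips the keratins. Simple epithelia such as that of the lung mainly use DSG2, DSC2 and PKP2, while DSG3, DSC3 and PKP1 are typical of stratified epithelia. TGFβ signalling can drive an epithelial to mesenchymal transition in which cell junctions are lost.

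The mean intensity of 8 of the 10 transcripts was lowest in resistant and highest in inhibitor cells, though 1 of these, PKP1, lay at background. How many of all genes had this order, or had groups without overlap, was not counted, so order and overlap only describe the members. A gene was called where its limma p, adjusted over all genes, was under 0.05. In resistant cells 5 of the 10 genes fell against parental cells (JUP, DSG2, PPL, DSC2 and DSP), DSC3 rose, and 4 were not called, where 10.2% of all genes tested fell and 10.3% rose. In inhibitor cells 7 of the 10 rose against resistant cells (those 5 with PKP2 and PKP3), where 8.71% of all genes rose. Against parental cells, 8 of the 10 were higher in inhibitor cells (those 7 with DSC3), where 7.15% of all genes were. PKP1 and DSG3 were called in no comparison.

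The array values are intensities with background left in. The 95th percentile of 387 olfactory receptor rows, 90.4, served as a stand-in for background, and a gene whose group mean was not above it is called within background. Of the 10 genes, 9 had a mean above it in at least 1 group. Arrays of a group correlated at 0.996 to 0.998, except that inhibitor replicate 2 correlated at 0.990 to 0.991 with the others of its group and had 55 rows at least 2-fold off their mean, against 3 in each of the others. Differences that rest on it are given without it too. Among 8 lung adenocarcinoma markers, the surfactant genes SFTPB and SFTPC were within background in all groups, 6 of the 8 fell in resistant against parental cells and 3 rose in inhibitor against resistant cells. NKX2-1, the lung lineage factor, had means of 155 ± 7.41 in inhibitor cells, 179.9 ± 11.9 in resistant cells and 409 ± 10.4 in parental cells (SD, n = 3 each).

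Promoter sequences are shown because several of these genes moved together. RefSeq's table for GRCh38.p14 held 9 entries for 7 of the members and none for PKP2, PKP3 and PPL. The sequence CAGGTG, searched on both strands, is an E-box form that repressors of the ZEB and SNAI families bind in the promoter of E-cadherin. It stood in 4 entries, 1 each of DSG2, DSC2, JUP and DSP, and these 4 genes passed the test both in resistant against parental and in inhibitor against resistant cells. The other entries of DSC2 and JUP and the entries of DSC3, DSG3 and PKP1 did not hold these letters. DSG3 and PKP1 lay at background, and PPL, also called in both comparisons, had no entry. The letters and the calls can thus not be compared over these members. Of all 35114 promoter entries of the same length (250 bases before to 50 after the start), 20.59% held the sequence at least once and 3.494% at least 2 times, so a match describes the letters and is not shown to be a binding site. The 250 bases before the start of transcription are shown 5′ to 3′ for these 4 and, for comparison, for DSC3 and DSG3, with this E-box in capitals; CACCTG is its reading from the other strand.
DSG2 (chr18:31497927-31498176, plus strand): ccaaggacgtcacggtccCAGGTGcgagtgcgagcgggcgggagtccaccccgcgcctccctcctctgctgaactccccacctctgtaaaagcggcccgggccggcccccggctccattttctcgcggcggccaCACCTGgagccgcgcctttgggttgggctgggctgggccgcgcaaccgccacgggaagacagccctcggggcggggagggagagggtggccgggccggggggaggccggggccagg
DSC2 (chr18:31102422-31102671, minus strand): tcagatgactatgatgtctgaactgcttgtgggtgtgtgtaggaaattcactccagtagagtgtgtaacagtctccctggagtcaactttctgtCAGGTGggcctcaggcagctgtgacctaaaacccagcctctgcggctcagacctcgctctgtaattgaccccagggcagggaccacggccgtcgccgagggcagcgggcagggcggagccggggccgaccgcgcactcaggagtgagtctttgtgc
JUP (chr17:41785977-41786226, minus strand): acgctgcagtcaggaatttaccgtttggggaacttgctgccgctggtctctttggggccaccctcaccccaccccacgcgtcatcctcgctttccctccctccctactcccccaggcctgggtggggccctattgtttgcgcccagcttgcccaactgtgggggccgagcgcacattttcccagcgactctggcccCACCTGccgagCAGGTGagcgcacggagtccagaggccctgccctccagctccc
DSP (chr6:7541421-7541670, plus strand): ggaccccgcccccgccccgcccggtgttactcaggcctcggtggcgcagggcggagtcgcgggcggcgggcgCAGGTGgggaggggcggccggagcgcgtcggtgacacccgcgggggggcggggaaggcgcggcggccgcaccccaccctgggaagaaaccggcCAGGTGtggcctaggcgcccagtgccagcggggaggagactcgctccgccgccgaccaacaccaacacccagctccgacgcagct
DSC3 (chr18:31042743-31042992, minus strand): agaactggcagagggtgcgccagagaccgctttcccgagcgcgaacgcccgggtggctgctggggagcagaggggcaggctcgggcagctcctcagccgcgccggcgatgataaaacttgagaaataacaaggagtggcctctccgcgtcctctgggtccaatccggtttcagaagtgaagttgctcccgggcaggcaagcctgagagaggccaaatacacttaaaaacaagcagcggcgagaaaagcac
DSG3 (chr18:31447491-31447740, plus strand): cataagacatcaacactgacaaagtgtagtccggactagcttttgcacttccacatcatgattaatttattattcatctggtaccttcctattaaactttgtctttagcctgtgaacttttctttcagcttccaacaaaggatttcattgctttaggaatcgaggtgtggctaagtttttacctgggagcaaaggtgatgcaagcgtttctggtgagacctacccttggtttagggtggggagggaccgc
The E-boxes lie 232 and 116 bases before the start in DSG2, 178 and 85 in DSP, 54 and 43 in JUP, and 156 in DSC2. The general E-box CANNTG, which overlaps the form above, was in 68.68% of all entries. No member entry held the Grainyhead-like motif AACCNGTT (1.726% of all entries), the AP-1 motif TGANTCA (7.709%) or the SMAD palindrome GTCTAGAC (0.2022%), searched on both strands. The short SMAD-bound sequence CAGAC, in 45.26% of all entries, was in those of DSG3 and PKP1 and in the entry of DSC2 shown above, but not in the other entry of DSC2.

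DSG2, the desmoglein found in all desmosome-bearing tissues, had intensities of 4268, 4577 and 3755 in inhibitor cells. It had 1716, 1682 and 1718 in resistant cells, against 2635, 2634 and 2919 in parental cells. The 3 groups did not overlap, with resistant arrays lowest and inhibitor arrays highest. In the limma fit DSG2 fell by 0.68 ± 0.09 (log2 ± SE, 1.60-fold lower, adjusted p = 1.33e-05) in resistant against parental cells. It was 2.45-fold higher in inhibitor than in resistant cells (1.30 ± 0.09, limma adjusted p = 3.52e-09).

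DSC2, the desmocollin partner of DSG2 in simple epithelia, had 536, 552 and 549 in inhibitor cells. Intensities were 278, 287 and 254 in resistant cells, against 396, 382 and 413 in parental cells. The order was that of DSG2, again with no overlap between groups. DSC2 fell by 0.54 ± 0.10 (log2, 1.46-fold lower, limma adjusted p = 0.000423) in resistant against parental cells. Inhibitor cells had 2.00-fold the level of resistant cells (1.00 ± 0.10, limma adjusted p = 4.22e-07).

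DSC3, the desmocollin of basal layers of stratified epithelia, went another way. It had 130.1, 119.9 and 137 in inhibitor cells and 126, 124 and 121 in resistant cells, against 108, 101 and 109 in parental cells. Every inhibitor and resistant array was above every parental array, and inhibitor and resistant arrays overlapped. DSC3 rose by 0.22 ± 0.06 on the log2 scale in resistant against parental cells (1.16-fold, or 1.84-fold with background subtracted, limma adjusted p = 0.012). The call was lost without resistant replicate 1 (0.20, limma adjusted p = 0.0509) or without parental replicate 2 (0.19, limma adjusted p = 0.0800). The change between inhibitor and resistant cells was 0.06 ± 0.06 (limma adjusted p = 0.615).

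DSG3, the desmoglein of basal keratinocytes, was within background on all 9 arrays. It had 83.0, 85.8 and 79.1 in inhibitor cells and 79.2, 84.1 and 80.3 in resistant cells, against 86.6, 87.2 and 82.1 in parental cells. These values say only that DSG3 was not measured above background.

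The changes of the desmocollins were set against each other within arrays. In resistant against parental cells the log2 change of DSC2 minus that of DSC3 was -0.76 ± 0.04 (SE), and in inhibitor against resistant cells it was 0.94 ± 0.07. Each had an exact two-sided permutation p of 0.1, the smallest that 3 against 3 arrays can give, and an adjusted p of 0.117 over 21 such tests, so this test could not reach 0.05. DSG3 was within background, so no such difference is given for the desmogleins.

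**Figure D1:**
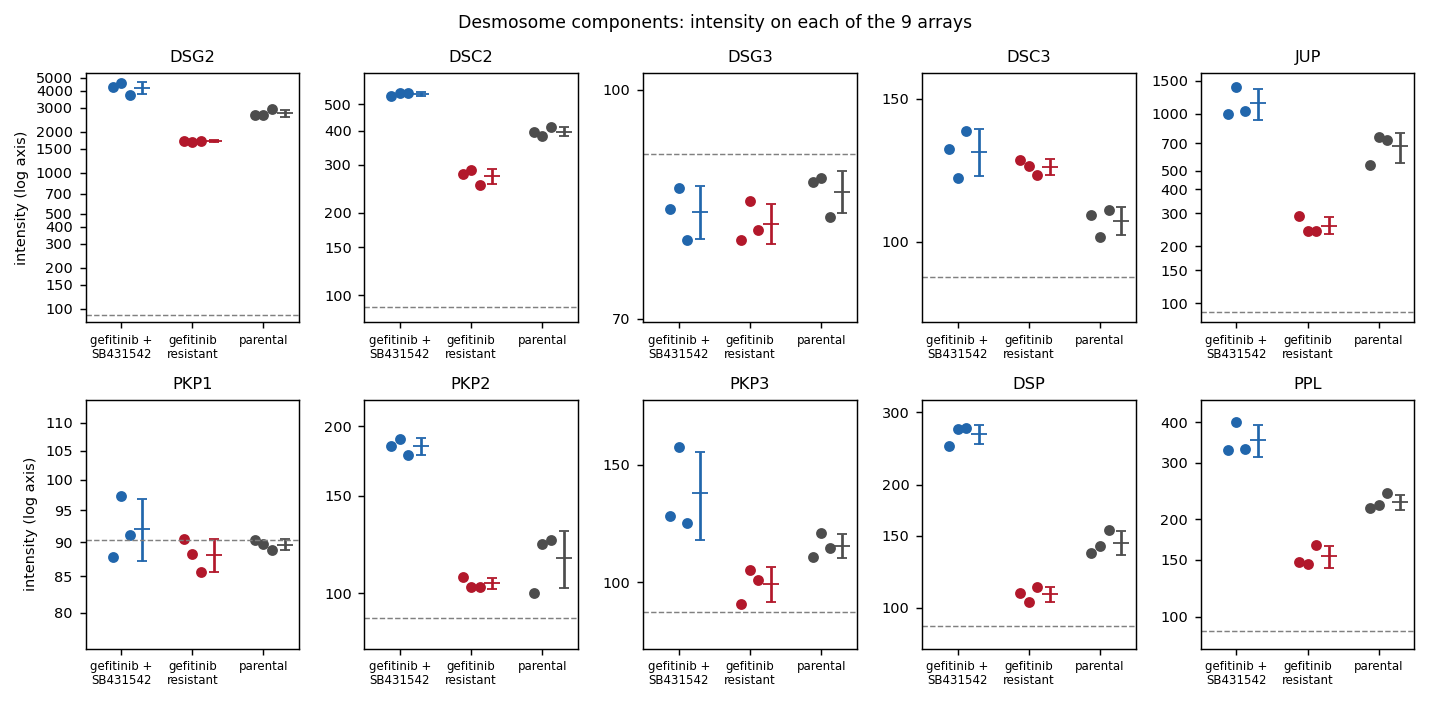
Intensity of each desmosome component on each array (points; log axis, its range set per gene) with mean ± SD over 3 arrays beside them, for inhibitor (gefitinib + SB431542), resistant and parental cells; the dashed line is the background stand-in of 90.4. DSG2, DSC2, JUP, DSP, PPL and PKP3 are lowest in resistant and highest in inhibitor cells with no overlap, a pattern not counted over all genes. DSC3 is lowest in parental cells, and DSG3 lies below the line.

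JUP encodes plakoglobin, the armadillo protein shared by desmosomes and adherens junctions, and as deposited had the largest change of the 10 genes in resistant against parental and in inhibitor against resistant cells. It had 998, 1393 and 1036 in inhibitor cells and 288, 242 and 242 in resistant cells, against 536, 756 and 731 in parental cells. Every resistant array was below every parental array, and every inhibitor array was above both groups. JUP fell by 1.38 ± 0.15 on the log2 scale (2.60-fold lower, limma adjusted p = 8.5e-07) in resistant against parental cells. Against resistant cells, inhibitor cells had JUP 4.40-fold higher (2.14 ± 0.15, limma adjusted p = 3.17e-09), and 1.99 on the log2 scale without inhibitor replicate 2. With background subtracted it was 6.10-fold higher there, less than DSP (8.01-fold), whose resistant arrays lay just above background, so this ranking depends on the background value used.

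β-catenin (CTNNB1) is the close relative of plakoglobin in adherens junctions and the coactivator of Wnt signalling. It had 206 ± 14.4 in inhibitor cells and 248 ± 43.9 in resistant cells, against 226 ± 56.9 in parental cells, with overlapping groups. Its change was 0.15 ± 0.15 in resistant against parental cells (limma adjusted p = 0.583) and -0.26 ± 0.15 in inhibitor against resistant cells (limma adjusted p = 0.3). The log2 change of JUP minus that of CTNNB1 was -1.53 ± 0.21 and 2.39 ± 0.21 in these comparisons, each with the exact permutation p of 0.1 named above.

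PKP2, the plakophilin of simple epithelia and heart, had 185, 189.9 and 177 in inhibitor cells. It had 107, 103 and 103 in resistant cells, against 100.1, 123 and 125 in parental cells. Inhibitor arrays stood above all others, while 1 parental array lay below the resistant arrays. The change in resistant against parental cells was -0.15 ± 0.08 (log2, limma adjusted p = 0.216), and without that parental array, replicate 1, it was called (-0.25, limma adjusted p = 0.0138). PKP2 was 1.76-fold higher in inhibitor than in resistant cells (0.82 ± 0.08, limma adjusted p = 1.24e-07), or 5.24-fold with background subtracted.

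PKP3, a plakophilin of most epithelia, was dim. It had 126, 159.8 and 123 in inhibitor cells and 92.8, 105 and 101 in resistant cells, against 109, 118 and 113 in parental cells. No groups overlapped, though replicate 2 stood above the other inhibitor arrays. The change in resistant against parental cells was -0.19 ± 0.08 (limma adjusted p = 0.115), which passed the test without inhibitor replicate 2 (limma adjusted p = 0.00973). PKP3 rose 1.36-fold in inhibitor against resistant cells (0.45 ± 0.08, limma adjusted p = 0.000467), or 2.84-fold with background subtracted, and by 0.32 on the log2 scale without inhibitor replicate 2.

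PKP1, the plakophilin of suprabasal layers of stratified epithelia, was at background. It had 87.8, 97.2 and 91.1 in inhibitor cells and 90.5, 88.2 and 85.6 in resistant cells, against 90.4, 89.7 and 88.8 in parental cells. Only the inhibitor mean, 92.0 ± 4.80, was above the stand-in of 90.4, and groups overlapped. Of the brighter plakophilins, the log2 change of PKP2 minus that of PKP3 in inhibitor against resistant cells was 0.37 ± 0.12 as deposited. Its exact permutation p was 0.1, the smallest that 3 against 3 arrays can give. With background subtracted PKP2 rose by 2.39 and PKP3 by 1.51 there, so the size of this difference depends on the background value used.

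DSP encodes desmoplakin, the plakin that links the plaque to keratin filaments. It had 249, 273 and 274 in inhibitor cells and 109, 103 and 112 in resistant cells, against 136, 142 and 155 in parental cells. Groups did not overlap, and resistant arrays lay just above background. DSP fell by 0.42 ± 0.07 on the log2 scale in resistant against parental cells (1.33-fold lower, limma adjusted p = 0.000306), or 2.61-fold with background subtracted. Against resistant cells, inhibitor cells had DSP 2.45-fold higher (1.29 ± 0.07, limma adjusted p = 1.94e-10), or 8.01-fold with background subtracted.

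PPL encodes periplakin, a plakin of the cell cortex and desmosomal plaque. It had 329, 400.3 and 330.2 in inhibitor cells and 148, 146 and 167 in resistant cells, against 217, 221 and 241 in parental cells. As with DSP, resistant arrays were lowest and inhibitor arrays highest, without overlap. PPL fell by 0.56 ± 0.10 on the log2 scale (1.47-fold lower, limma adjusted p = 0.000231) in resistant against parental cells. It was 2.29-fold higher in inhibitor than in resistant cells (1.20 ± 0.10, limma adjusted p = 2.55e-08), or 3.93-fold with background subtracted. As deposited, the change of DSP minus that of PPL was 0.10 ± 0.09 there, an exact permutation p of 0.4. With background subtracted DSP rose 8.01-fold there, more than PPL, so the size of this difference depends on the background value used.

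The members' median log2 change in resistant against parental cells was -0.30, against 0.0045 over all genes. Of genes with a mean above background, 18.6% were called lower. JUP was the 1 member that fell at least 2-fold, as did 1.53% of all genes. With background subtracted DSP (2.61-fold) and PPL (2.08-fold) passed that size too, as did 1151 of the 14517 genes tested in that setting. In bulk RNA, fewer cells with a transcript and less of it per cell cannot be told apart.

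With 7 of the 10 called higher in inhibitor against resistant cells, 0 were called lower in limma (8.85% of all genes were), and 0 were lower at an unadjusted p under 0.05. Of genes with a mean above background, 15.8% were called higher. JUP, DSG2, DSP, PPL and DSC2 rose at least 2-fold, as did 1.06% of all genes. The members' median was 0.91, against -0.00082 over all genes. The 7 calls stood in each of 20 alternative settings. Without inhibitor replicate 2 their log2 changes lay between 0.32 for PKP3 and 1.99 for JUP.

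**Figure D2:**
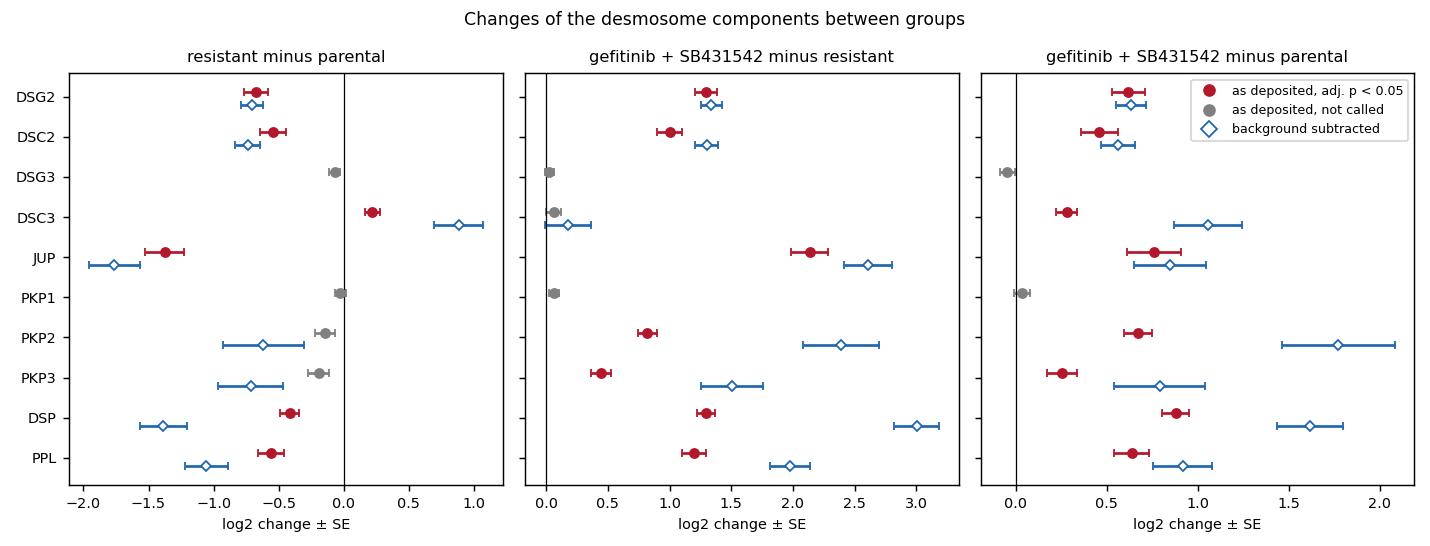
Log2 change ± SE of each component in 3 comparisons from limma, as deposited (circles, red where adjusted p is under 0.05, grey where not) and with background subtracted (open blue diamonds, absent for PKP1 and DSG3). Among the values as deposited, JUP has the largest change in the first 2 panels (-1.38 and 2.14); the dim genes DSP, PKP2 and PKP3 move further from 0 once background is subtracted.

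Levels in inhibitor cells were above those of parental cells for 8 of the 10 genes, and 0 were called lower in limma, or were lower at an unadjusted p under 0.05. Of genes with a mean above background 13.1% were called higher, and of all genes 7.82% were called lower. The members' median change was 0.54, against 0.0045 over all genes, and 0 of the 10 reached 2-fold, as 0.595% of all genes did. With background subtracted, DSP was 3.07-fold, PKP2 3.42-fold and DSC3 2.08-fold higher, where 574 of the 14517 genes tested in that setting were called at least 2-fold higher. DSP was 1.84-fold higher in inhibitor than in parental cells (0.88 ± 0.07, limma adjusted p = 5.15e-08), the largest of these differences as deposited. JUP was 1.69-fold higher (0.76 ± 0.15, limma adjusted p = 0.00121), and 0.61 on the log2 scale without inhibitor replicate 2. PKP2, which was not called in resistant against parental cells, was 1.59-fold higher (0.67 ± 0.08, limma adjusted p = 2.15e-06). The log2 differences of PPL (0.64), DSG2 (0.62), DSC2 (0.46) and DSC3 (0.28) were smaller, with limma adjusted p-values of 0.00299 or less.

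PKP3 was the weakest of these calls (0.25 ± 0.08, limma adjusted p = 0.0397). It was lost under 10 of 20 alternatives, among them leaving out any parental array or resistant replicate 2 or 3, and without inhibitor replicate 2 its change was 0.13 (limma adjusted p = 0.167). The 3 comparisons share arrays, so agreement between them is not independent.

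Desmogleins and desmocollins lie side by side on chromosome 18, in the RefSeq order DSC3, DSC2, DSC1, DSG1, DSG4, DSG3 and DSG2, followed by TTR and B4GALT6. DSC1, DSG1 and DSG4, cadherins of skin and hair, were within background in all groups like DSG3, and so was TTR. Of the 7 cadherin genes, only DSC3, DSC2 and DSG2 were above background, and among these DSC3 and DSC2 are neighbours whose changes had opposite signs in resistant against parental cells (0.22 and -0.54). B4GALT6, which encodes a galactosyltransferase, had 125 ± 8.47 in inhibitor cells and 108 ± 1.15 in resistant cells, against 122 ± 7.22 in parental cells.

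**Figure D3:**
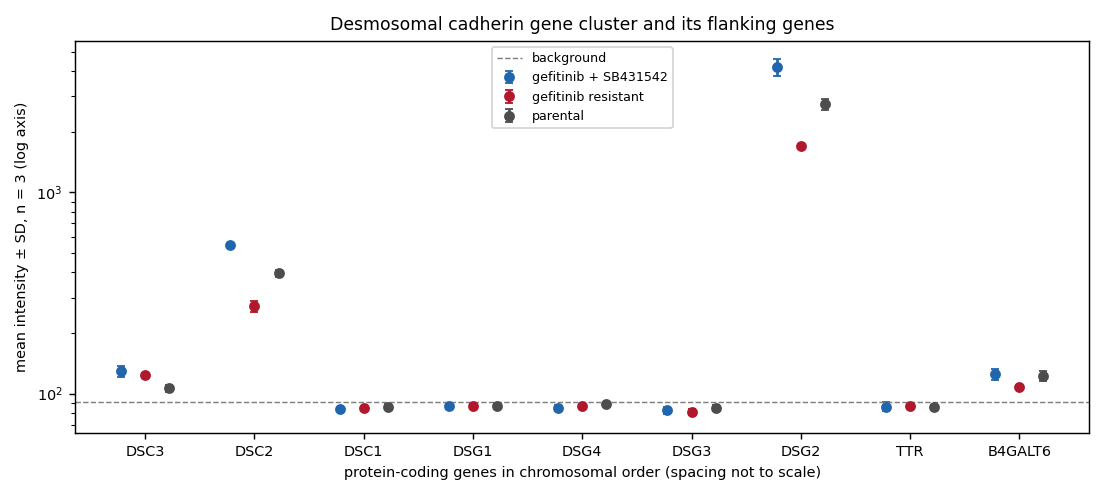
Mean intensity ± SD over 3 arrays (log axis) for the desmosomal cadherin genes and 2 flanking genes in chromosomal order, in inhibitor, resistant and parental cells; the dashed line is the background stand-in of 90.4. DSC2 and DSG2 stand clear of the line in every group and DSC1, DSG1, DSG4, DSG3 and TTR do not; heights of different genes cannot be compared.

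Among 10 other desmosomal genes and plakins, 4 fell and 1 rose in resistant against parental cells, and 3 rose and 0 fell in inhibitor against resistant cells in limma (0 fell at an unadjusted p under 0.05 too). PERP, a membrane protein that desmosome assembly needs in mouse skin, fell by 0.91 ± 0.14 on the log2 scale in resistant against parental cells and rose by 1.27 ± 0.14 in inhibitor against resistant cells. Its means were 3720.0 ± 1045 in inhibitor cells, 1511 ± 61.4 in resistant cells and 2855 ± 349 in parental cells, with replicate 2 highest of the inhibitor arrays. Envoplakin (EVPL), which pairs with periplakin, fell by 0.70 ± 0.09 and rose by 0.78 ± 0.09 in the same comparisons. The adjusted p-values of these 4 changes were 6.01e-05 or less in limma. MACF1, a plakin that links actin and microtubules, was the 1 that rose in resistant against parental cells (0.53 ± 0.12, limma adjusted p = 0.00199). MACF1 had 2 rows, of which the brighter was used. Its change ranged from 0.28 to 0.73 over 20 alternatives and was called in each. Without inhibitor replicate 2, the rises in resistant against parental cells numbered 2.

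Keratins, the filaments that desmosomes anchor, split. Of 14 keratin genes, 4 rose and 3 fell in resistant against parental cells, and 9 rose and 1 fell in inhibitor against resistant cells. KRT19 and KRT7, keratins of simple and glandular epithelium, fell by 1.57 and 0.91 (log2) in resistant against parental cells. The paired simple keratins KRT8 and KRT18 rose by 0.70 and 0.58 in that comparison, the opposite sign to DSP. All 4 rose in inhibitor against resistant cells, KRT19 by 2.18, KRT7 by 2.06, KRT8 by 0.78 and KRT18 by 0.74. KRT17, a keratin of basal and wounded epithelium, rose in resistant against parental cells (0.43) and was the 1 that fell with the inhibitor (-0.25). KRT17 was dim, with means of 98.4 in inhibitor and 117 in resistant cells, and 86.6, within background, in parental cells. The highest limma adjusted p among these 10 changes was 0.00139, and KRT5 and KRT14, the basal pair, were within background.

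Adherens junctions share plakoglobin with desmosomes. Of 9 genes, 2 rose and 2 fell in resistant against parental cells. E-cadherin (CDH1) fell by 1.43 ± 0.12 and P-cadherin (CDH3) by 1.54 ± 0.14 on the log2 scale, while N-cadherin (CDH2) rose by 1.94 ± 0.10, all with limma adjusted p-values of 5.15e-08 or less. With the inhibitor, 3 rose and 0 were called lower against resistant cells in limma (2 were lower at an unadjusted p under 0.05). CDH2 had 2134 ± 126 in inhibitor cells and 2499 ± 102 in resistant cells, against 650.2 ± 39.2 in parental cells, so every inhibitor array was above every parental array, as for DSG2 and DSC2, but resistant arrays were the highest. Its change in inhibitor against resistant cells was -0.23 ± 0.10 (limma adjusted p = 0.147), and it was not called there in 18 of 20 alternatives. Over the list, 1 gene was called lower there in 4 of 20 alternatives, and that gene was not always CDH2. α-catenin (CTNNA1), the actin link, was not called in either comparison (-0.05 and -0.07).

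Of 16 transcriptional regulators known from epithelial junctions, 9 fell and 3 rose in resistant against parental cells, and 10 rose and 2 fell in inhibitor against resistant cells. The epithelial factors EHF and OVOL2 fell by 2.59 ± 0.13 and 1.74 ± 0.13 (log2) and rose by 2.02 ± 0.13 and 2.37 ± 0.13, with limma adjusted p-values of 6.1e-09 or less. TWIST1, an inducer of mesenchymal change, rose by 1.70 ± 0.07 in resistant against parental cells and fell by 0.66 ± 0.07 in inhibitor against resistant cells (limma adjusted p of 1.64e-06 or less). TP63, the master factor of stratified epithelium and a known regulator of PERP, had 506 ± 27.7 in inhibitor cells and 168 ± 5.90 in resistant cells, against 280.4 ± 13.0 in parental cells. Its order of groups was that of DSG2, DSC2, JUP, DSP, PPL and PKP3, and the groups did not overlap, a pattern not counted over all genes. Without inhibitor replicate 2, the rises in resistant against parental cells numbered 5.

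Members of the families that bind the E-box shown above were read one by one. ZEB2, a repressor, had 84.2, 90.1 and 87.6 in inhibitor cells and 161, 193 and 162 in resistant cells, against 82.7, 87.4 and 83.3 in parental cells. Only the resistant arrays were clear of background, and the change was 1.02 ± 0.06 in resistant against parental cells (limma adjusted p = 3.68e-10) and -0.98 ± 0.06 in inhibitor against resistant cells (limma adjusted p = 1.3e-09). ZEB1 and SNAI1 were within background in all groups, although ZEB1 was called at that level in resistant against parental cells (0.18). SNAI2 had 501 ± 89.4 in inhibitor cells and 463 ± 27.5 in resistant cells, against 368 ± 18.6 in parental cells, and its change in resistant against parental cells was 0.33 ± 0.13 (limma adjusted p = 0.0707), called without inhibitor replicate 2 (limma adjusted p = 0.00998) and in 5 of 20 alternatives in all. No binding was measured here, and the part of any of these genes in the members' changes was not tested.

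**Figure D4:**
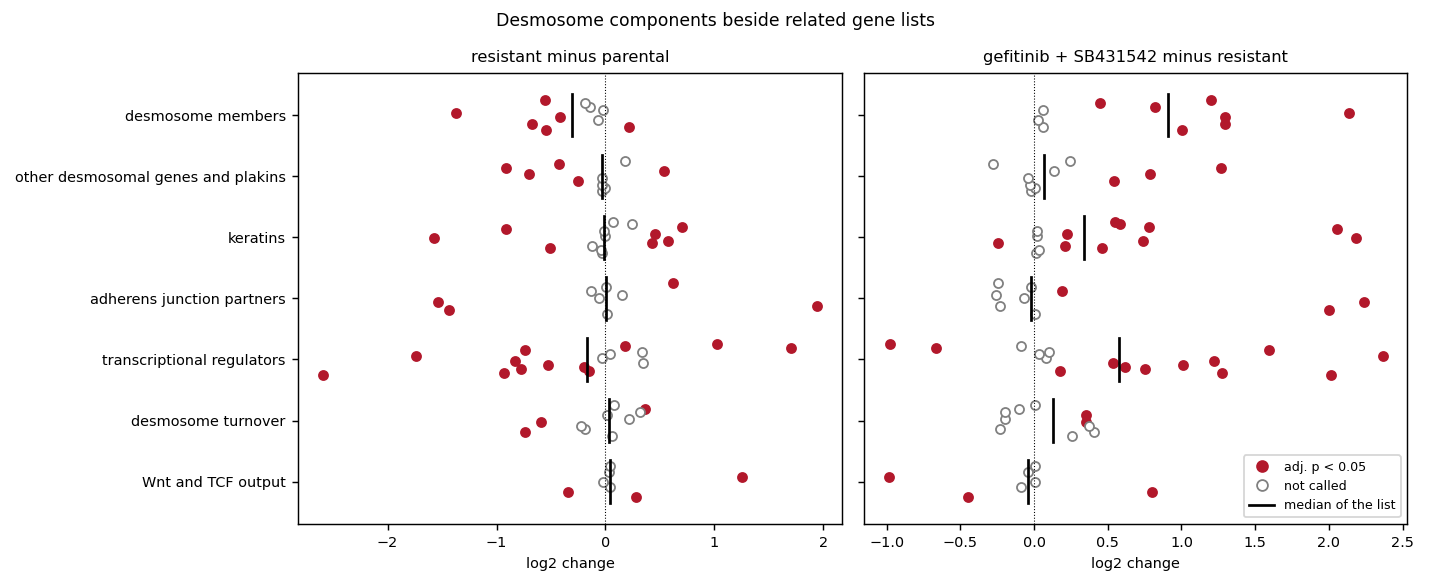
Log2 change of every gene of 7 lists (1 point per gene, filled where limma adjusted p is under 0.05, open where not; the black bar is the list's median) in resistant against parental and inhibitor against resistant cells. The median of the desmosome components is -0.30 on the left and 0.91 on the right; vertical scatter within a list only separates the points.

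The genes with the pattern closest to JUP were sought among 11904 genes, by the distance between pairs of log2 changes (resistant minus parental, inhibitor minus resistant) over the 3 groups of 3 arrays. They were ST14, which encodes the membrane protease matriptase (distance 0.066; -1.31 and 2.15), COL17A1, a hemidesmosomal collagen (0.116), and CDH1 (0.146). Without inhibitor replicate 2 the change of COL17A1 in inhibitor against resistant cells was 2.37, beside 1.99 for JUP and 1.94 for CDH1, so its closeness to JUP depends on that array. Those closest to DSG2 were FAM83A (0.057), CCDC120 (0.066) and FAM83H (0.078), of which FAM83H is known to bind casein kinase 1 at keratin filaments. FAM83H changed by -0.60 and 1.28, beside -0.68 and 1.30 for DSG2.

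Markers of other cell types were summed beside these results. The 7 fibroblast markers summed to 632 to 644 per array in inhibitor cells and 1424 to 1536 in resistant cells, against 608 to 620.1 in parental cells. COL1A2, LUM and FAP were the 3 that rose in resistant against parental cells and fell in inhibitor against resistant cells, while COL3A1, PDGFRB and DCN were within background in every group. COL1A1 was called in neither comparison, with means of 111 in inhibitor, 107 in resistant and 99.5 in parental cells. COL1A2 moved the sum most, with means of 92.9 in inhibitor, 784 in resistant and 91.4 in parental cells. The 9 squamous and basal markers summed to 1343 to 1439 in inhibitor cells and 952 to 956 in resistant cells, against 1037 to 1068 in parental cells. KRT5, KRT14 and DSG1 were within background, and 6 of the 9 also stand in the lists above. TP63 moved this sum most, with means of 506 in inhibitor, 168 in resistant and 280.4 in parental cells. In resistant against parental cells 1 of the 9 was called higher and 2 lower. In resistant against parental cells 1 leukocyte marker rose and 1 fell, with PTPRC and CD3E within background, and 1 of 6 endothelial and 1 of 6 cardiac markers fell. The part of these markers in the desmosomal changes was not tested.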

How the data were processed

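RNA of HCC4006 cells was extracted with Trizol, cleaned on RNeasy columns and turned into biotin-labelled cRNA, per the labels' protocols. The authors deposited 1 linear intensity per gene symbol and array. Array medians of 91.1 to 91.3 and sorted values within 0.0178 (log2) of their mean show that the deposited intensities were quantile-normalized, and the lowest, 72.7, that background had not been subtracted. No scanner, software or rule for combining probes is given in the sources used here.

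Of 34687 rows, 3270 named by UniGene cluster and 92 spike-in rows were left out. Names were updated with RefSeq's table of GRCh38.p14 (17757 current symbols, 2669 gene numbers and 3303 older symbols matched, and 7596 rows kept their name), and the brightest row of a gene was used. With limma 3.58.1 in R 4.3.3, log2 intensities of the 9 arrays were fitted by group with a trended variance prior. P-values were adjusted by Benjamini-Hochberg over 30580 genes, and calls were made at an adjusted p under 0.05. No filter on low values was used. Pair differences were tested by exact two-sided permutation over arrays. The fit was tested on simulated data. Labels give no batch. Figures were drawn with matplotlib 3.10.9.

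The members, gene lists and tests were chosen with earlier results of these data known. The lists were other desmosomal genes and plakins, keratins, adherens junction partners, transcriptional regulators, desmosome turnover, Wnt and TCF output, and markers of lung adenocarcinoma, squamous epithelium, cardiac muscle, leukocytes, endothelium and fibroblasts. Named genes are all members, at most 3 called genes per list with the largest change in resistant against parental cells, exceptions singled out, and the 3 genes nearest to the 2 members that changed most there. In the background-subtracted alternative, the olfactory receptor median of each array was subtracted, with a floor of 16. The others were another variance prior, cyclic loess, upper quartile scaling, a pseudocount of 50, leaving out dim genes, the mean of rows, keeping UniGene rows, fitting 6 arrays, array weights, a replicate block and leaving out each array in turn. The number of arrays limits the precision.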

Additional observations from a re-analysis of the deposited data

How the results depend on the processing

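Of 588 values of the members' changes under 20 alternatives, 569 kept direction and call, 12 lost the call, 5 gained it and 2 changed sign; 19 of 21 calls stood under every alternative. In resistant against parental cells, PKP3 was called with background subtracted (-0.72, limma adjusted p = 0.0459), with only the 6 arrays compared (-0.19, 0.0115) and with array weights (-0.20, 0.0242). In inhibitor against parental cells its call was lost with only the 6 arrays compared or a prior without trend (0.25 each), with cyclic loess (0.24) and with array weights (0.18). Asking also for 2-fold left 0 members higher and 1 lower in resistant against parental cells, and 0 higher in inhibitor against parental cells. With array weights, the uncalled log2 change of DSG1 was 0.010 and that of GRHL1 -0.0029 in inhibitor against parental cells, a change of sign. With background subtracted, the change of DSP minus that of PPL in resistant against parental cells was -0.33, and that of DSC2 minus that of DSC3 in inhibitor against parental cells -0.49, both reversed.

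With each array left out in turn, the log2 changes in resistant against parental cells ranged from 0.19 to 0.24 for DSC3, -0.25 to -0.088 for PKP2, -0.23 to -0.14 for PKP3, -0.052 to 0.32 for CTNNB1 and -0.029 to 0.021 for DSG1, and the count of members called higher from 0 to 1. In inhibitor against resistant cells they ranged from -0.026 to 0.019 for DSG1, -0.0017 to 0.057 for DSG3 and -0.025 to 0.24 for SNAI2. In inhibitor against parental cells they ranged from 0.13 to 0.32 for PKP3, -0.0038 to 0.070 for PKP1, -0.31 to 0.066 for CTNNB1, -0.032 to 0.023 for DSG1, -0.050 to 0.15 for EVPL, -0.025 to 0.067 for GRHL1, -0.063 to 0.016 for GRHL2 and -6.18e-05 to 0.048 for COL1A2. The change of PKP2 minus that of PKP3 in resistant against parental cells ranged from -0.030 to 0.11. The cause of these differences was not tested.

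Same-numbered arrays of different groups correlated in their deviations at -0.231 to 0.0345 and arrays of other numbers at -0.213 to 0.268. No pairing by number was thus seen, though so few arrays cannot exclude it. With the replicate number as a block, 5 members were called lower and 1 higher in resistant against parental cells, 7 higher in inhibitor against resistant cells and 8 higher in inhibitor against parental cells, as without it. Over all genes the block gave 2945 higher and 2975 lower calls in the first comparison.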

Other observations

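Of 10 genes that cut, modify or recycle desmosomal proteins, 2 fell and 1 rose in resistant against parental cells. ADAM15, a membrane protease, fell by 0.74 ± 0.14 on the log2 scale (limma adjusted p = 0.000679), to 1528 ± 137 in resistant cells, against 2554 ± 299 in parental cells. EGFR, the target of gefitinib, fell by 0.59 ± 0.12 (limma adjusted p = 0.000922), to 445 ± 34.3 in resistant cells, against 671 ± 77.2 in parental cells. PRMT1, an arginine methyltransferase, rose by 0.36 ± 0.11 (limma adjusted p = 0.0189), a call lost under 5 of 20 alternatives, each of which left out parental replicate 1 or 3 or a resistant array. In inhibitor against resistant cells 2 of the 10 were called higher and 0 lower in limma, 1 was lower at an unadjusted p under 0.05, and over the alternatives the number called higher lay between 0 and 3.

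Plakoglobin can compete with β-catenin in Wnt signalling, so 7 genes of Wnt and TCF output were read beside it. In resistant against parental cells MYC rose by 1.25 ± 0.12 and AXIN2 by 0.28 ± 0.05 on the log2 scale, while CCND1 fell by 0.34 ± 0.07. In inhibitor against resistant cells MYC fell by 0.99 ± 0.12 and AXIN2 by 0.45 ± 0.05, while CCND1 rose by 0.80 ± 0.07. The limma adjusted p-values of these 6 changes were 0.00181 or less. AXIN2 had 90.4, 84.9 and 86.0 in inhibitor cells and 121, 114 and 123 in resistant cells, against 104, 94.1 and 95.8 in parental cells. The list had no common direction, and its median change was 0.037 in the first comparison and -0.040 in the second.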
